A study of Homo sapiens with 6 samples.

Results

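The genes described here are 10 regulators and secreted factors known as targets of the transcription factors ATF4 and CHOP: TRIB3, CHAC1, SESN2, DDIT4, STC2, GDF15, NUPR1, ADM2, VLDLR and FGF21. They were chosen by name and with earlier results of these data known, without the enzymes and transporters of amino acid supply. All 10 were found among the 26228 rows of the deposited table. RNA came from AsPC-1, an established human pancreatic cancer cell line. There were 3 libraries of cells given vehicle and 3 of cells given DON. DON is 6-diazo-5-oxo-L-norleucine, which resembles glutamine and inhibits enzymes that use it. Both groups were exposed for 24 h in medium without serum, so lack of serum is common to vehicle and DON. The dose of DON is not given in the sources used here, and nothing says whether the replicates were separate cultures, so the p-values reflect only how much these libraries vary, which may be technical. In bulk RNA, fewer cells with a transcript and less of it per cell cannot be told apart. The comparison asks which transcripts respond when glutamine use is blocked.

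Phosphorylation of the initiation factor eIF2 by stress-sensing kinases lowers general protein synthesis and favours translation of ATF4. ATF4 induces CHOP, the product of DDIT3, and both act with C/EBP proteins on composite C/EBP-ATF elements of their target genes. Amino acid shortage and stress of the endoplasmic reticulum both feed into this route, which is active in the secretory cells of the pancreas.

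The composite element has a core of TGATGNAA, or TTNCATCA when read on the other strand. Promoter windows from 250 bases before to 50 after each start were taken from RefSeq (GRCh38.p14). They were at hand for 9 of the 10 effector genes and not for NUPR1. The core was searched on both strands. It occurred in 3.62% of 35116 windows and in 4.46% of 27305 genes. Among the effectors CHAC1 and FGF21 held it, both as TTGCATCA, and these are shown because one of them rose strongly with DON while the other was hardly detected. ASNS, of amino acid supply, and the transcription factor genes CEBPG and ATF3 are shown beside them as genes of the same route with a match. Each line gives 60 bases, 5′ to 3′ on the strand of the gene, with the match in capitals.
CHAC1: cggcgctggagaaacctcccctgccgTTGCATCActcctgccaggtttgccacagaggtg
FGF21: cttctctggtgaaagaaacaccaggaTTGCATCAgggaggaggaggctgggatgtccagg
ASNS: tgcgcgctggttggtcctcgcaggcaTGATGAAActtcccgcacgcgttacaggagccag
CEBPG: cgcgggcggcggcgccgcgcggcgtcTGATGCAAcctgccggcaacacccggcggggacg
ATF3: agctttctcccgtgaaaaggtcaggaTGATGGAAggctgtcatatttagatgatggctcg

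These stretches lie at chr15:40953236-40953295 (plus strand) for CHAC1, chr19:48755444-48755503 (plus) for FGF21 and chr7:97872443-97872502 (minus) for ASNS. Those of CEBPG and ATF3 lie at chr19:33374045-33374104 and chr1:212565190-212565249, both on the plus strand. All 5 are upstream of the annotated start. The first base of the match stood at -209 for CHAC1, -54 for FGF21, -68 for ASNS, -42 for CEBPG and -191 for ATF3. A match is a description of the letters, not evidence of binding. The other 7 effectors with a window had no match in it, which says only that these letters are not there. Of 21 genes of amino acid supply with a window, 9 held the core (42.9%).

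Of the 10 effectors 7 rose with DON and 3 were hardly detected in either group. The values are FPKM, read counts divided by transcript length and by the mapped total, so that levels can be compared between genes. The 11471 genes tested reached 1 FPKM in 3 or more libraries. The test was limma's moderated test on log2(FPKM + 1), adjusted over all of them by Benjamini-Hochberg at a threshold of 0.05. TRIB3, CHAC1, SESN2, DDIT4, GDF15, NUPR1 and ADM2 passed the filter. All 7 were called higher and 0 lower, also 0 lower at an unadjusted p under 0.05. Over all tested genes 18.3% were called higher and 20.6% lower, 38.9% in either direction. In all 7 every DON library lay above every vehicle library, as it did for 24.9% of tested genes, while 26.5% had every DON library below. NUPR1 passed the filter only through its DON libraries and 1 vehicle library, so its being tested was tied to its being high with DON. The median log2 fold change of the 7 was 1.60, against -0.012 over all tested genes. Because the genes were chosen with earlier results known, these contrasts are a description and no test of the list. STC2, VLDLR and FGF21 stayed under 1 FPKM in all 6 libraries and were not tested.

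**Figure D1:**
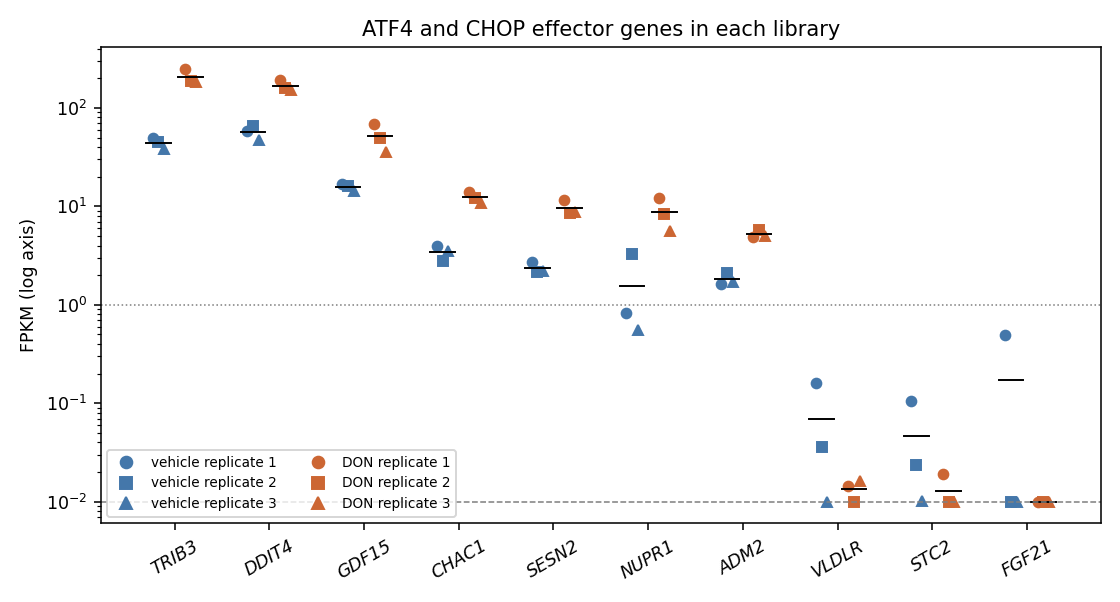
FPKM on a log axis of the 10 effector genes in each library, ordered by their mean with DON. Blue points are vehicle and orange points DON, the marker shape gives the replicate, short lines are group means, the dotted line is 1 FPKM and the dashed line the table's floor of 0.01. The 7 genes on the left have no overlap between groups, and the 3 on the right lie under 1 FPKM in every library.

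The libraries resembled each other in total signal, with FPKM sums of 525200 to 556950, while 40.3% to 45.8% of rows stood at the floor of 0.01. Steps between low values of the same gene gave a relative depth of 1.25 to 1.70 for the other 5 libraries against vehicle replicate 1, the shallowest. These ratios rest on 46 to 71 of 671 to 767 genes compared, and absolute depth is unknown. Of 8 epithelial markers KRT8 and KRT18 carried failure marks, and the other 6 summed to 3467 to 4480 FPKM with vehicle and 2930.1 to 4102 FPKM with DON. Among them KRT19 measured 1527 to 2377 FPKM and KRT7 10.6 to 15.4 FPKM, while MUC1 and CLDN4 fell 2.23-fold and 1.55-fold. The 4 endothelial markers summed to at most 0.142 FPKM, and the 6 acinar and islet markers to at most 1.26 FPKM in any library. Of 6 fibroblast and 5 immune markers all but LUM and LYZ stayed under 1 FPKM. LUM fell 1.39-fold, from 153 ± 16.0 to 110.0 ± 19.2 FPKM, and LYZ fell 2.54-fold, from 250.3 ± 67.8 to 98.5 ± 19.9 FPKM. The part of these marker changes in the results was not tested. Spearman correlations across genes between a library's deviation from its group mean and GC content were 0.515 in DON replicate 1, 0.230 in vehicle replicate 1 and 0.311 in vehicle replicate 2. They were -0.408 to -0.424 in vehicle replicate 3, DON replicate 2 and DON replicate 3. By the sign of this tilt within their own group, the libraries divide into sets of 3. Deviations within a group cancel out, so opposite signs inside each group are built in. The tilt of vehicle libraries against DON libraries is not given by these values.

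Among the intracellular regulators TRIB3 and DDIT4 were the most abundant. TRIB3 encodes a pseudokinase that binds AKT and restrains ATF4 in a feedback loop. It measured 49.1, 45.5 and 37.8 FPKM in vehicle replicates 1 to 3 and 248, 186 and 183 FPKM in DON replicates 1 to 3. Every DON library lay above every vehicle library, and the lowest DON value was 3.72 times the highest vehicle value. The mean rose 4.66-fold, from 44.2 ± 5.78 to 206 ± 37.0 FPKM (SD, n = 3 per group; log2 fold change 2.19 ± 0.15 SE, limma adjusted p = 0.000129). Only 0.253% of tested genes had a larger rise on this scale.

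DDIT4 encodes REDD1, which inhibits the growth kinase complex mTORC1 through the TSC complex. Its values were 58.9, 65.1 and 47.3 FPKM with vehicle and 193, 159 and 151 FPKM with DON. The groups did not overlap. The mean rose 2.94-fold, from 57.1 ± 9.0004 to 168 ± 22.3 FPKM (n = 3 per group, log2 fold change 1.54 ± 0.15 SE, limma adjusted p = 0.000389). In vehicle DDIT4 stood above TRIB3 on average and the highest TRIB3 library overlapped the lowest of DDIT4. With DON the order of the means was the opposite, with overlap again. The library kit keeps strand, but exons of DDIT4 overlap those of the antisense gene DDIT4-AS1 in GENCODE version 29 and the use of strand in counting is not given in the sources used here, so reads of these genes cannot be told apart.

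SESN2 and CHAC1 were less abundant. SESN2 encodes Sestrin2, a leucine-binding protein that restrains mTORC1 through the GATOR2 complex. It measured 2.71, 2.15 and 2.19 FPKM with vehicle and 11.5, 8.58 and 8.79 FPKM with DON. The groups were well apart, and the mean rose 4.09-fold from 2.35 ± 0.313 to 9.64 ± 1.66 FPKM (n = 3 per group, log2 fold change 1.66 ± 0.14 SE, limma adjusted p = 0.000252). CHAC1 encodes an enzyme that breaks down glutathione. Its values were 3.95, 2.75 and 3.52 FPKM with vehicle and 13.9, 12.1 and 10.9 FPKM with DON. Here too no library of one group reached the other. The mean rose 3.61-fold, from 3.41 ± 0.604 to 12.3 ± 1.52 FPKM (n = 3 per group, log2 fold change 1.60 ± 0.14 SE, limma adjusted p = 0.000281).

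NUPR1, a small chromatin-associated stress protein first described in pancreatitis, varied most between replicates. Its values were 0.828, 3.30 and 0.560 FPKM with vehicle and 12.2, 8.31 and 5.64 FPKM with DON. Vehicle replicate 2 stood far above the other vehicle libraries, and DON replicate 3 was only 1.71 times that value. The mean rose 5.59-fold, from 1.56 ± 1.51 to 8.73 ± 3.31 FPKM, with a wide interval (n = 3 per group, log2 fold change 2.02, 95% interval 1.04 to 3.003, limma adjusted p = 0.00902). Without the filter on low values, which lets 26187 genes into the fit, the call was lost (limma adjusted p = 0.0820). It was kept when any 1 library was left out, with limma adjusted p up to 0.0360.

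Of the secreted effectors GDF15 and ADM2 rose. GDF15 is a stress hormone of the TGF-beta superfamily that acts on appetite through GFRAL and RET. It measured 17.01, 16.2 and 14.2 FPKM with vehicle and 68.4, 49.8 and 36.0 FPKM with DON. The DON libraries were spread out, yet the lowest of them was 2.12 times the highest vehicle library. The mean rose 3.25-fold, from 15.8 ± 1.45 to 51.4 ± 16.3 FPKM (n = 3 per group, log2 fold change 1.60 ± 0.22 SE, limma adjusted p = 0.00172). ADM2, or intermedin, is a peptide of the calcitonin family that acts on CALCRL with a RAMP partner. Its values were 1.63, 2.12 and 1.70 FPKM with vehicle and 4.84, 5.72 and 4.997 FPKM with DON. This was the smallest rise of the 7 on both scales, 2.86-fold from 1.82 ± 0.266 to 5.19 ± 0.468 FPKM, with groups that did not overlap (n = 3 per group, log2 fold change 1.14 ± 0.12 SE, limma adjusted p = 0.000562).

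STC2, VLDLR and FGF21 were hardly detected. FGF21 is a fasting hormone that signals through FGF receptors with beta-Klotho. It was listed at 0.497 FPKM in vehicle replicate 1 and at the floor of 0.01 in the other 5 libraries, although its promoter window holds the same TTGCATCA as that of CHAC1. STC2, a secreted glycoprotein that inhibits the protease PAPPA, was listed at 0.106, 0.0234 and 0.0102 FPKM with vehicle and at 0.0190, 0.01 and 0.01 FPKM with DON. VLDLR, a receptor for lipoproteins and reelin, was listed at 0.162, 0.0358 and 0.01 FPKM with vehicle and at 0.0145, 0.01 and 0.0161 FPKM with DON. In all 3 genes the highest value belonged to vehicle replicate 1, the shallowest library. That library was also the highest in 20.9% of the 5609 genes that stayed under 1 FPKM everywhere and above the floor somewhere. A fit without the filter on low values called none of the 3, at limma adjusted p of 0.674 to 0.700. No rise with DON was detectable for them at this depth. VLDLR shares exons with the antisense gene VLDLR-AS1, which was at the floor in all 6 libraries.

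By level with DON the order was TRIB3, DDIT4, GDF15, CHAC1, SESN2, NUPR1, ADM2 and then the 3 genes near the floor. Neighbours separated without overlap with DON at 3 places: between DDIT4 and GDF15, between GDF15 and CHAC1, and between ADM2 and VLDLR. TRIB3 and DDIT4 overlapped, as did CHAC1, SESN2, NUPR1 and ADM2 each with its neighbour. Summed over the 10 genes, the level was 107 to 137 FPKM per library with vehicle and 400.4 to 553 FPKM with DON. TRIB3, DDIT4 and GDF15 together made up 91.9% to 92.7% of that sum in every library. Within it the share of TRIB3 was 33.2% to 36.4% with vehicle and 43.2% to 45.6% with DON, while that of DDIT4 was 43.6% to 47.4% and 34.98% to 37.8%.

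Most effectors shared an order across the DON libraries. DON replicate 1 was the highest DON library for 6 of the 7 tested effectors, all but ADM2, and DON replicate 3 the lowest for 5. DON replicate 1 was the highest of the 3 for 43.3% of all tested genes and for 33.1% of those called higher. For DON replicate 3 being the lowest, the share over all tested genes was not taken. The median deviation of the 7 from the DON mean was 0.25 in DON replicate 1, -0.020 in DON replicate 2 and -0.15 in DON replicate 3 (log2 scale). DON replicate 1 is also the library with the strongest tilt toward GC-rich genes relative to its group mean. The GC content of the 7 transcripts was 51.3% to 64.2%, against a median of 49.3% over tested genes. After a correction of each library for GC content the median deviation of DON replicate 1 was 0.093, and it remained the highest for 5 of the 7. GDF15 and NUPR1 kept the widest spread after that correction, at 0.28 and 0.47 in DON replicate 1 and -0.36 and -0.48 in DON replicate 3. ADM2, the most GC-rich of the 7, was lowest in DON replicate 1 before and after the correction, at -0.080 and -0.33. The part of GC content in this pattern was not tested further.

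**Figure D2:**
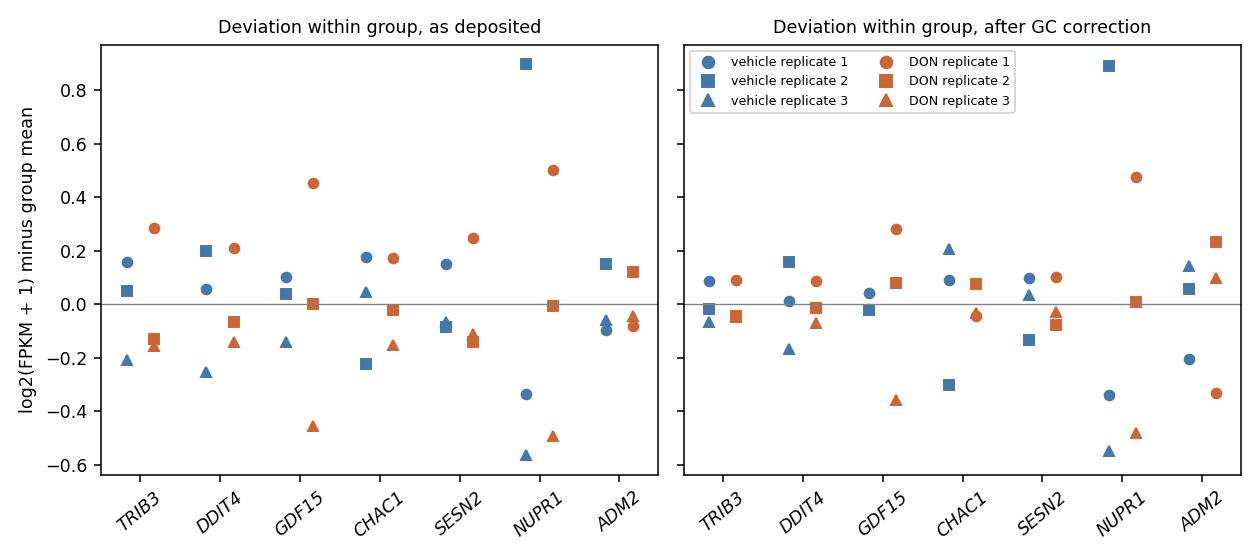
Deviation of each library from the mean of its group on the log2(FPKM + 1) scale for the 7 tested effectors, as deposited (left) and after the GC correction (right), with blue for vehicle, orange for DON and the marker shape for the replicate. DON replicate 1 (orange circles) lies above the other DON libraries for 6 of 7 genes on the left. Most deviations shrink on the right, while those of NUPR1 and GDF15 stay wide and several of ADM2 and CHAC1 grow.

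Log2 differences were also taken within each side of the division by GC tilt. Each side holds only 1 library of one group, so they are a description. The part of GC content in the rises was not tested. Within vehicle replicates 1 and 2 and DON replicate 1 the log2 differences of the 7 genes ran from 1.03 (ADM2) to 2.37 (TRIB3). Within vehicle replicate 3 and DON replicates 2 and 3 they ran from 1.23 (ADM2) to 2.33 (NUPR1). GDF15 differed most between the sets, at 1.98 and 1.51. TRIB3 stood at 2.37 and 2.25, CHAC1 at 1.79 and 1.47, and SESN2 at 1.87 and 1.60.

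**Figure D3:**
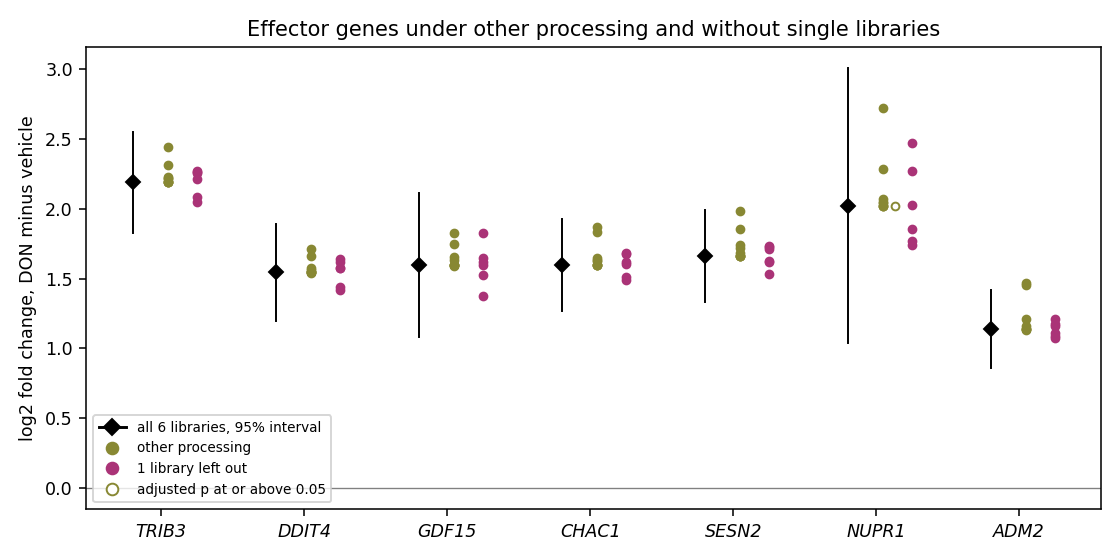
Log2 fold change (DON minus vehicle, of FPKM + 1) of the 7 tested effectors with all 6 libraries and its 95% interval (black diamonds), under other processing (olive) and with 1 library left out (purple); open circles have an adjusted p at or above 0.05. All values lie above 1, and the only open circle is NUPR1 without the filter on low values.

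Upstream of the effectors, genes of the stress response itself rose in part. Of 18 kinases, phosphatase subunits and transcription factors, all tested, limma called 13 higher and 0 lower, with the same counts at an unadjusted p under 0.05 (median log2 fold change 0.97). The shares over all tested genes were 18.3% higher and 20.6% lower. Among the eIF2 kinases only EIF2AK3 was called. EIF2AK3 encodes PERK, the kinase of the endoplasmic reticulum, and measured 5.30, 5.75 and 5.76 FPKM with vehicle and 12.9, 12.5 and 12.8 FPKM with DON (2.27-fold, limma adjusted p = 0.0002). EIF2AK4, or GCN2, which senses uncharged tRNA, stood at 10.2 ± 0.392 and 10.5 ± 0.283 FPKM (n = 3 per group, log2 fold change 0.05, 95% interval -0.14 to 0.24). EIF2AK1 (-0.07, interval -0.36 to 0.22), EIF2AK2 (-0.16, interval -0.44 to 0.12) and the substrate gene EIF2S1 (-0.06, interval -0.26 to 0.14) were not called either. These are transcript levels and say nothing of kinase activity. PPP1R15A, the inducible phosphatase subunit GADD34 that reverses eIF2 phosphorylation, rose 3.49-fold, from 20.7, 20.4 and 13.6 FPKM to 81.7, 58.0 and 50.9 FPKM. Its constitutive counterpart PPP1R15B rose 1.28-fold (limma adjusted p = 0.0162), a call lost without vehicle replicate 2, DON replicate 2 or DON replicate 3 (limma adjusted p = 0.0605, 0.0713 and 0.0640).

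Transcripts of the transcription factors in this list rose as well, except ATF5. Whether these factors act on the effectors in these cells was not tested. ATF4 measured 191, 202 and 179 FPKM with vehicle and 420, 383 and 342 FPKM with DON, with DON replicate 1 the highest and DON replicate 3 the lowest. DDIT3, which encodes CHOP, measured 37.7, 27.4 and 37.5 FPKM with vehicle and 178, 222 and 226 FPKM with DON, and here DON replicate 1 was the lowest. CHOP transcripts thus did not follow the order of most effectors across the DON libraries. GC content was 55.3% for ATF4 and 50.3% for DDIT3, and its part in these orders was not tested. CEBPG, a C/EBP partner of ATF4, rose 2.42-fold to 66.0 ± 1.39 FPKM. JDP2 and ATF3, bZIP factors of the same network, rose 3.28-fold and 3.33-fold to 5.60 ± 0.467 and 6.38 ± 0.426 FPKM. CEBPB rose 1.98-fold (limma adjusted p = 0.0137, and 0.0987 without the filter), with 118 FPKM in DON replicate 1 against 75.2 and 73.3 FPKM in the others. ATF5, itself a target of ATF4, stood at 11.3 ± 0.913 and 10.8 ± 1.39 FPKM (n = 3 per group, log2 fold change -0.06, 95% interval -0.33 to 0.21). Of the other sensors of the endoplasmic reticulum, ERN1, which encodes IRE1, rose 3.76-fold and XBP1, its splicing target, 2.01-fold. ATF6 rose 1.496-fold (limma adjusted p = 0.0372), a call lost without vehicle replicate 1, vehicle replicate 2, DON replicate 2 or DON replicate 3, at limma adjusted p of 0.109 to 0.117, and without the filter (0.165). NFE2L2, or NRF2, rose 1.76-fold to 153 ± 15.9 FPKM.

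Other known targets of ATF4 and CHOP gave a frame for the size of the rises. Of 23 tested genes of amino acid supply, limma called 20 higher and 1 lower (median log2 fold change 0.97). Among all tested genes 18.3% were called higher and 20.6% lower, with a median of -0.012. ASNS, the asparagine synthetase whose promoter core is printed above, reached 310 ± 31.8 FPKM, and MTHFD2, of mitochondrial folate metabolism, 346 ± 16.1 FPKM, rises of 8.51-fold and 6.95-fold. SLC3A2, an amino acid transporter chain, rose 4.10-fold, and SLC1A4, a neutral amino acid transporter, went from 0.234 ± 0.0905 to 3.21 ± 0.137 FPKM. TRIB3 rose by less than ASNS and MTHFD2 on the log2 scale (2.19 against 3.05 and 2.77), and the other 6 tested effectors had a log2 rise of at most 2.02. With 0.1 in place of 1 added to the FPKM, NUPR1 reached 2.72 and TRIB3 2.21, so the order among effectors depends on that setting. Of 11 tested genes that link CHOP to cell death, protein oxidation and autophagy, limma called 7 higher and 0 lower, and 9 and 0 had an unadjusted p under 0.05 (median 0.64). ERO1B, an oxidase of disulfide formation, went from 0.211 ± 0.0593 to 10.4 ± 0.675 FPKM. SLC1A4 and ERO1B reached 1 FPKM in the DON libraries alone, so each was tested only because it was high there. WIPI1, of autophagosome formation, rose 6.09-fold, DNAJC3, a co-chaperone that inhibits PERK, 4.13-fold, and BBC3, the pro-death BCL2 relative PUMA, 2.05-fold.

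**Figure D4:**
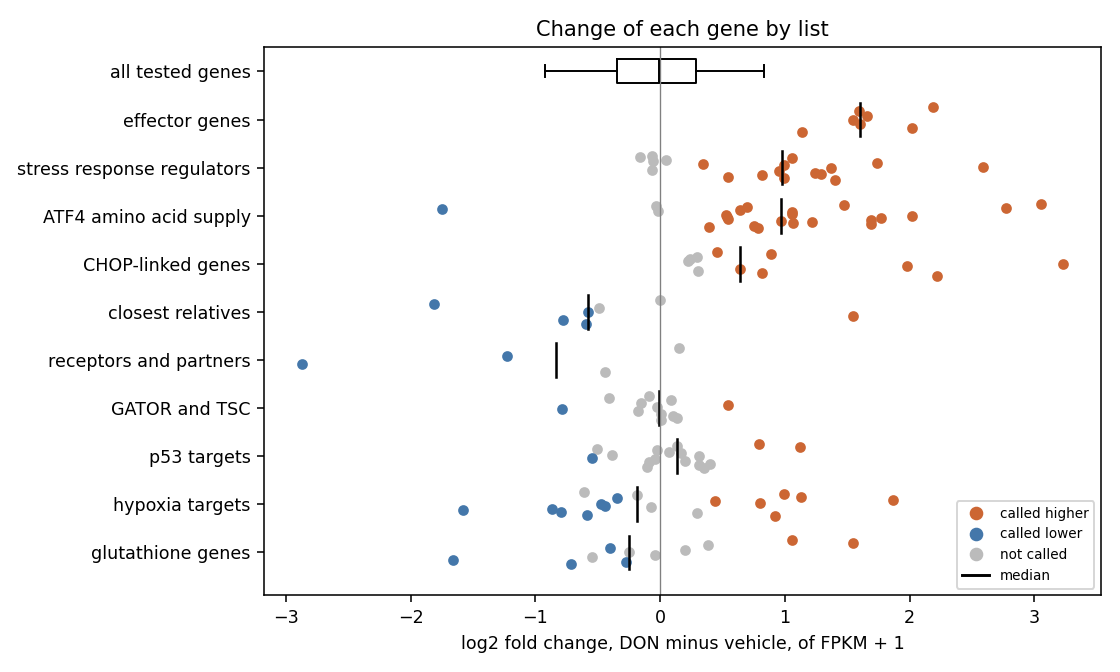
Log2 fold change (DON minus vehicle, of FPKM + 1) of every tested gene of the 10 lists, 1 point per gene in orange where called higher, blue where called lower and grey otherwise, with a black line at each list's median; the box at the top spans the quartiles of all tested genes and its whiskers the 5th to 95th percentile. The 7 effectors lie between 1.14 and 2.19, to the right of the upper whisker. Their tested relatives and receptors lie mostly below 0, as does the median of all tested genes (-0.012).

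Among the tested closest relatives of the effectors, ADM alone was called higher. Of 13 relatives 7 were tested, and limma called 1 higher and 4 lower (median log2 fold change -0.57). Over all tested genes the shares were 18.3% higher and 20.6% lower, so the count of higher calls is no result about the list. TRIB2, a pseudokinase of the TRIB3 family, measured 36.9, 45.3 and 38.8 FPKM with vehicle and 11.3, 11.3 and 9.70 FPKM with DON, a 3.74-fold fall (limma adjusted p = 8.52e-05). TRIB1 stood at 29.2 ± 1.48 and 29.1 ± 2.09 FPKM (n = 3 per group, 95% interval of the log2 fold change -0.21 to 0.21). TRIB3 was thus 1.10 ± 0.197 times TRIB2 with vehicle and 19.1 ± 2.81 times TRIB2 with DON.

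SESN1, the Sestrin known as a p53 target, fell 1.73-fold, from 3.56, 3.39 and 3.47 FPKM to 2.12, 1.82 and 2.07 FPKM (limma adjusted p = 0.00491). The Sestrin with the higher level therefore changed from SESN1 in every vehicle library to SESN2 in every DON library. The ratio of SESN2 to SESN1 was 0.677 ± 0.0744 with vehicle and 4.795 ± 0.606 with DON (SD, n = 3 per group). CHAC1 and CHAC2 changed places in the same way. CHAC2, the constitutive relative, measured 10.3, 7.39 and 13.01 FPKM with vehicle and 5.54, 6.11 and 9.23 FPKM with DON, with overlap (log2 fold change -0.49, 95% interval -1.04 to 0.06, limma adjusted p = 0.138). CHAC2 was called lower with a GC correction (limma adjusted p = 0.0413) and with a term for the division by GC tilt (limma adjusted p = 0.0190). A block for the replicate number also gave a lower call for CHAC2. CHAC1 was 0.343 ± 0.0629 times CHAC2 with vehicle and 1.89 ± 0.668 times with DON. In these pairs, and for TRIB3 against TRIB1 and TRIB2, the log2 ratios of the 2 groups did not overlap. Each gave p = 0.1 in an exact two-sided permutation test over the 6 libraries, the smallest that 3 against 3 allows, so the design cannot reach 0.05.

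ADM, the peptide relative of ADM2, rose 3.58-fold, from 3.47, 2.88 and 2.80 FPKM to 13.1, 10.4 and 9.24 FPKM (limma adjusted p = 0.000352). The ratio of ADM2 to ADM was 0.604 ± 0.133 with vehicle and 0.487 ± 0.102 with DON, with overlapping groups (exact permutation p = 0.2). LRP8, the other reelin receptor, fell 2.02-fold from 4.72 ± 0.124 to 2.33 ± 0.155 FPKM. FGF19, the gut hormone related to FGF21, fell 1.55-fold from 24.3 ± 3.06 to 15.7 ± 0.812 FPKM. SESN3, DDIT4L, STC1, NUPR1L and FGF23 stayed under 1 FPKM in all 6 libraries.

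**Figure D5:**
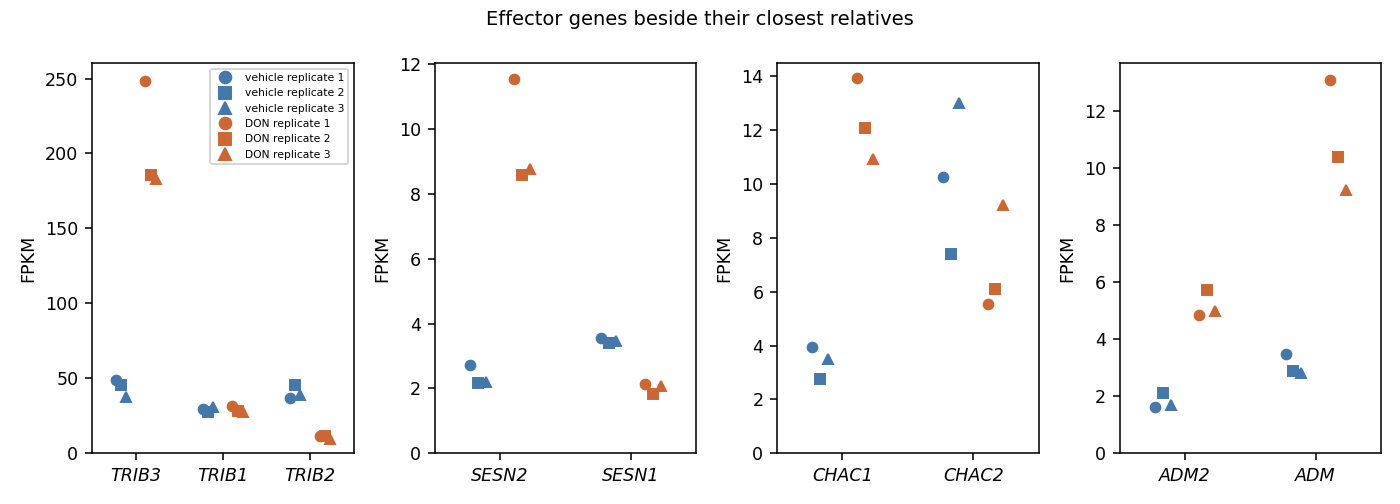
FPKM on linear axes from 0 of TRIB3, SESN2, CHAC1 and ADM2 beside their closest relatives, 1 panel per family, with blue for vehicle, orange for DON and the marker shape for the replicate. SESN2 and CHAC1 lie below their relative with vehicle and above it with DON, TRIB3 leaves TRIB1 and TRIB2 behind, and ADM rises together with ADM2.

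Most receptors and binding partners of the secreted effectors and of VLDLR were low. Of 14 receptors and binding partners 10 stayed under 1 FPKM in all 6 libraries, and 5 of these were at the floor throughout: GFRAL and RET for GDF15, RAMP3 for ADM2, and RELN and DAB1 for VLDLR. Of the 26228 rows, 11292 to 11474 per library reached 1 FPKM and 40.3% to 45.8% per library stood at the floor. These counts are therefore no result about the list. KLB, which encodes beta-Klotho, was listed at no more than 0.0136 FPKM and CALCRL at no more than 0.159 FPKM. RAMP2, FGFR2 and PAPPA also stayed under 1 FPKM. Limma called 0 of the 4 tested genes higher and 2 lower, with the same counts at an unadjusted p under 0.05. Over all tested genes 18.3% were called higher and 20.6% lower. FGFR4 measured 74.9, 77.6 and 55.5 FPKM with vehicle and 11.5, 8.33 and 6.45 FPKM with DON, a 7.92-fold fall, and FGFR3 fell 5.40-fold from 2.38 ± 0.223 to 0.440 ± 0.110 FPKM. FGFR3 reached 1 FPKM in the vehicle libraries alone and was tested only because it was high there. FGFR1 stood at 6.44 ± 0.685 and 7.25 ± 0.171 FPKM (limma adjusted p = 0.266). RAMP1 stood at 299 ± 56.1 and 220 ± 51.4 FPKM (limma adjusted p = 0.125), far above its partner CALCRL. It was called lower without DON replicate 1 or vehicle replicate 3 (limma adjusted p = 0.0375 and 0.0491) and with a term for the division by GC tilt (0.0327). A block for the replicate number also gave a lower call for RAMP1. With the GC correction it was not called, at a log2 fold change of -0.094 (limma adjusted p = 0.465).

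SESN2 and DDIT4 act on mTORC1 through the GATOR and TSC complexes. Of 12 genes of these complexes, all tested, limma called 1 higher and 1 lower (median log2 fold change -0.012). Over all tested genes 18.3% were called higher and 20.6% lower. SEC13, which also serves the COPII coat of the endoplasmic reticulum, rose 1.47-fold, and NPRL3, of GATOR1, fell 1.78-fold. Around CHAC1, 11 glutathione genes gave 2 higher and 4 lower (median -0.25). Beside those shares, the counts of both lists are no result about the lists. GCLC, the catalytic subunit of the enzyme that starts glutathione synthesis, rose 2.96-fold to 145 ± 5.27 FPKM, and SLC7A11, the cystine transporter, rose 2.12-fold to 59.5 ± 2.001 FPKM. GPX2, a glutathione peroxidase, fell 3.52-fold and OPLAH, which recycles the product of CHAC-type enzymes, 1.66-fold. The falls in this list were unsteady. The list gave 1 lower without vehicle replicate 2 or DON replicate 3 and 0 lower without DON replicate 2, while 2 were higher in each case. GPX2 was lost without DON replicate 2 (limma adjusted p = 0.0631), and OPLAH without vehicle replicate 1, vehicle replicate 2, DON replicate 2 or DON replicate 3 (0.0698 to 0.0799).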

How the data were processed

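Poly(A) RNA of 6 AsPC-1 libraries was sequenced, and the authors deposited a table of FPKM by gene symbol and library. The submitters' processing notes name STAR and the build hg19. For the FPKM program, annotation, strand use and scaling, the sources used here give nothing. The control columns were matched to vehicle replicates through their numbers. In 41 rows, 72 cells held a failure mark, and these genes were not tested. Values became log2(FPKM + 1), so fold changes of genes near 1 FPKM are understated. Limma 3.58.1 (R 4.3.3) compared DON with vehicle with an intensity trend and no replicate block, two-sided. The fit was checked on simulated data with noise independent between genes and libraries, so deviations shared across genes were not covered. Fold values are ratios of FPKM means. The GC correction subtracted from each library a lowess curve of its deviations from the mean of all 6 libraries on transcript GC content (GENCODE version 29, 94.97% of tested genes). Tables and plots used Python 3.11.15, pandas 2.3.3 and matplotlib 3.10.9. The effector genes, lists and alternatives were chosen with earlier results of these data known. Named were all effectors, regulators, relatives and receptors, up to 4 called genes of each other list by size of change, and the 5 genes most like the effectors' mean profile. The values of 1 relative are not reported here.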

Additional observations from a re-analysis of the deposited data

How the results depend on the processing

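All 7 tested effectors kept their direction under every alternative run, and limma called each of them in all, except NUPR1 without a filter. A filter at 5 FPKM left ADM2 untested. Their median log2 fold change was 1.60, 1.83 with a pseudocount of 0.1, 1.86 with the GC correction and 1.51 to 1.71 with 1 library left out. The number of all tested genes called was 4459, 2942 without a filter and 2697 (without DON replicate 2) to 4656 with 1 library left out. With a filter at 5 FPKM 3 relatives (5 before) and 1 receptor (2 before) were called, as fewer were tested. Of p53 targets 3 were called, 8 with a replicate block, 8 with a term for the GC tilt of the libraries and 3 to 6 with 1 library left out (5 without vehicle replicate 1, 6 without DON replicate 1). Of glutathione genes 6 were called, 3 without a filter and 2 to 8 with 1 library left out. The cause was not tested. Same-numbered libraries deviated together for numbers 1 and 3 (r = 0.254 and 0.502 across genes) but not 2 (r = -0.184). Not every library correlated best with its own number. What a shared number stands for is not given in the sources used here, so whether same-numbered libraries were paired cannot be told. The replicate block moved the called genes from 4459 to 2551 higher and 2863 lower and called CHAC2 and RAMP1 lower (limma adjusted p = 0.0216 and 0.00711). Sign changes were limited to genes never called: TRIB1 reached 0.029 with median-of-ratios scaling, 0.0072 with the tilt term, 0.020 with the GC correction and -0.060 to 0.033 with 1 library left out. ATF5 reached 0.011 with the tilt term and 0.19 with the GC correction, and EIF2AK1 -0.16 to 0.022 with 1 library left out. FPKM give no absolute depth, which limits what can be said of STC2, VLDLR and FGF21.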

Other observations

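Several effectors are also known as targets of p53 (SESN2, GDF15) or of hypoxia-inducible factors (DDIT4, VLDLR, STC2). The part of these routes in the effectors' rise was not tested. Of 17 tested p53 targets, limma called 2 higher and 1 lower (median log2 fold change 0.14), where 18.3% of all tested genes were higher and 20.6% lower, so these counts are no result about the list. With a term for the GC tilt of the libraries they were 5 higher and 3 lower. BTG2, an anti-proliferative gene, rose 2.28-fold and CDKN1A, the cell cycle inhibitor p21, 1.79-fold, while TIGAR, which restrains glycolysis, fell 1.89-fold. MDM2, the feedback inhibitor of p53, stood at 11.4 ± 0.446 and 12.6 ± 0.700 FPKM (n = 3 per group, limma adjusted p = 0.242). It was named after its values were seen. Of 17 tested hypoxia targets 6 were higher and 7 lower (median -0.19). ANKRD37 rose 5.94-fold from 1.19 ± 0.182 to 7.09 ± 1.60 FPKM, NDRG1, a stress-responsive gene, 2.21-fold, and VEGFA, the angiogenic growth factor, 2.02-fold. ALDOC, a glycolytic aldolase, fell 3.69-fold.

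Of 11463 other tested genes ATF4 had the profile most like the mean standardised profile of the 7 effectors over the 6 libraries (Pearson r = 0.9994). ZNF770, SRPRB, PRPF39 and LTN1 followed at r of 0.998 to 0.999. The 6 libraries form separate groups, so the difference between vehicle and DON sets most of such an r, and 799 genes exceeded 0.95. After the GC correction ATF4 ranked 4 of 10887 (r = 0.9994), SRPRB 226, PRPF39 846, LTN1 1024 and ZNF770 1815.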
